A study of Mus musculus with 2 samples.

Results

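The genes of prostaglandin and leukotriene synthesis were described in bone marrow-derived dendritic cells of the mouse, GMDC in the submitters' labels. The 9 genes were chosen by name: Ptgs1, Ptgs2, Ptges and Hpgds of the prostaglandin branch, and Alox5, Alox5ap, Alox15, Lta4h and Ltc4s of the lipoxygenase branch. Every probe set that the platform annotation ties to exactly 1 symbol was taken when that symbol was a member. This gave 10 probe sets for 8 of the 9 genes, out of 22180 genes named in this way, and Ptgs1 was not analysed here. Alox5 and Alox5ap each had a pair of probe sets.

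Total RNA of 2 cultures was measured on Affymetrix arrays. In the first, the dendritic cells were grown with medium taken from E0771, a mammary tumour line of the mouse, after that line had been treated with the topoisomerase I inhibitor topotecan. The second was the control culture, for which the labels give no medium, no mouse strain and no number of animals. There was 1 array per culture, so the values carry no replicate error and no test could be run. An effect of topotecan cannot be told apart from an effect of tumour-conditioned medium in general.

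Prostaglandins and leukotrienes are signalling lipids made from arachidonic acid, which phospholipases release from membranes. The cyclooxygenases, constitutive Ptgs1 and inducible Ptgs2, turn it into prostaglandin H2, from which terminal synthases make prostaglandin E2, D2, I2 or thromboxane. In the other branch 5-lipoxygenase, helped by its activating protein, makes leukotriene A4, from which leukotriene B4 or the cysteinyl leukotrienes follow. In dendritic cells such lipids are known to influence migration and cytokine output.

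Inducible cyclooxygenase and a prostaglandin E2 synthase were higher with conditioned medium, whereas Hpgds, Alox5ap, Lta4h and Alox15 were lower and Ltc4s was higher, each by less than 2-fold. Of the 8 measured genes, all 8 reached the filter level of 4.10, the median log2 value over both arrays together. A 2-fold higher value or more was seen for 2 of them, Ptgs2 and Ptges, and a 2-fold lower value for 0. Over all 13712 kept genes the shares were 8.63% on the higher side and 6.84% on the lower side. The other 6 members lay between, with Ltc4s above 0, 4 members below 0 and Alox5 with no settled direction because its probe sets differed in sign. Without Alox5, 3 of 7 members were above 0 and 4 below, where 44.2% of all kept genes lay above 0 and 54.0% below. With the threshold at 1.5-fold, 2 members were higher and 3 lower (Hpgds, Alox5ap and Alox15), against 16.6% and 17.9% of kept genes. At 3-fold Ptgs2 was the 1 member counted as higher and 0 were lower, against 4.14% and 2.11% of kept genes. The median log2 difference (conditioned medium minus control) was -0.20 over the 8 members, -0.35 when Alox5 and Alox5ap were taken as the mean of their probe sets, and -0.07 over all kept genes.

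**Figure D1:**
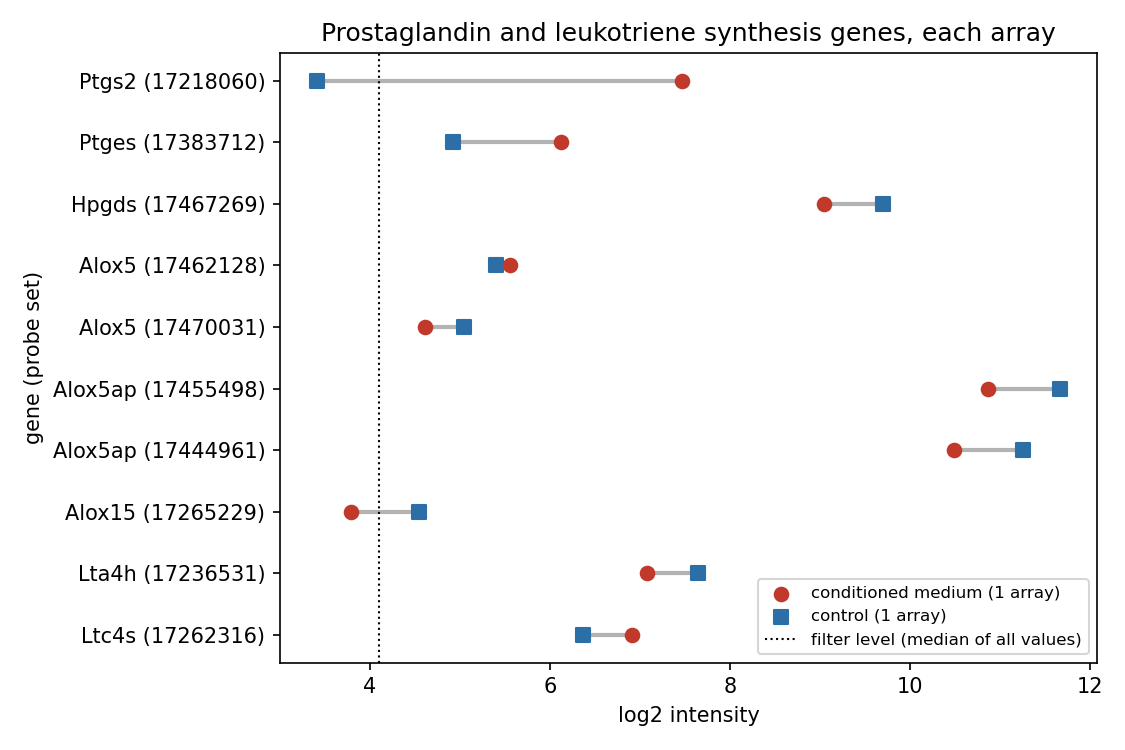
Log2 intensity (horizontal axis) of the 10 member probe sets (vertical axis) on the conditioned-medium array (circles) and the control array (squares), 1 array each. Ptgs2 has the longest line, from 7.47 with conditioned medium to a control value of 3.41 left of the dotted filter level of 4.10, and Alox5ap lies at 10.49 to 11.67 in both cultures.

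Ptgs2 encodes cyclooxygenase-2, the inducible enzyme that catalyses the first committed step to prostaglandins. Its log2 intensity (probe set 17218060) was 7.47 with conditioned medium, against 3.41 in the control. The control value lay under the filter level, which is a median and not a measured background, so that value may be background. The conditioned-medium value lay well above the filter level. As deposited the ratio was 16.6, and measured against the filter level it was 10.3. A larger difference in either direction was found in 0.503% of kept genes as deposited, and in 0.839% when all values under the filter level were raised to it.

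Ptges encodes microsomal prostaglandin E synthase-1, an inducible enzyme that is often coupled to cyclooxygenase-2. Its log2 intensity (probe set 17383712) was 6.12 with conditioned medium, against 4.92 in the control. Both values were above the filter level, and the ratio was 2.30. A larger difference in either direction was found in 11.0% of kept genes, so its size was common on these arrays.

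Hpgds encodes hematopoietic prostaglandin D synthase, which takes the same precursor to prostaglandin D2. Its log2 intensity (probe set 17467269) was 9.05 with conditioned medium, against 9.71 in the control. The gene was well above the filter level in both cultures and 1.57-fold lower with conditioned medium. A larger difference was found in 30.0% of kept genes. Of the 3 measured prostaglandin members, the E2 synthase and the D2 synthase thus differed in opposite directions.

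The promoters of these 3 genes are shown because Ptgs2 and Ptges were the members more than 2-fold higher and Hpgds was the prostaglandin member that was lower. Each runs from 250 bases before to 50 bases after the start in a RefSeq table of build GRCm38.p6. For Ptgs2 that start is the first base of its gene record, whereas for Ptges and Hpgds it lies inside the record, at an internal start. Ptgs2 lies at chr1:150099781-150100080 on the plus strand, Ptges at chr2:30903248-30903547 on the minus strand and Hpgds at chr6:65144681-65144980 on the minus strand. They are written in the direction of the gene, and capitals mark every match to the motifs named after them.
Ptgs2: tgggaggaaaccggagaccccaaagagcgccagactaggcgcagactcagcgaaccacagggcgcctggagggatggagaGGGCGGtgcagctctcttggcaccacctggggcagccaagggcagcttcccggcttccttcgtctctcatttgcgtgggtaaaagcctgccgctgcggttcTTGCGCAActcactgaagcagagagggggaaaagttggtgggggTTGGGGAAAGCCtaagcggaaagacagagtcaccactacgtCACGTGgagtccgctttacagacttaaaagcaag
Ptges: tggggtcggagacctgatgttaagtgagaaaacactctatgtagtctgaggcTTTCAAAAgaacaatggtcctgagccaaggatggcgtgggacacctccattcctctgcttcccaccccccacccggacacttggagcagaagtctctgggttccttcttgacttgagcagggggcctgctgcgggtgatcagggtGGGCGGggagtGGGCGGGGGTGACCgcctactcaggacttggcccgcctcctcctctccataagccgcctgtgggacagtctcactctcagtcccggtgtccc
Hpgds: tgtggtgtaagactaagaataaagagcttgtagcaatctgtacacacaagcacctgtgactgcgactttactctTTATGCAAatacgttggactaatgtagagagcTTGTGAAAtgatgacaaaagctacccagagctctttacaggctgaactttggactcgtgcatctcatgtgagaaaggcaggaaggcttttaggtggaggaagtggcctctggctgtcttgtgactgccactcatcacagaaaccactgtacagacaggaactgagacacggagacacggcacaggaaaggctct

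Motifs were searched on both strands. The core promoter motifs were the TATA box (TATAAA) and the GC box (GGGCGG). The motifs of activator families were C/EBP-like (TTNNGNAA), STAT-like (TTCNNNGAA), the CRE (TGACGTCA), the E-box (CACGTG) and AP-1 (TGANTCA). An NF-kB-like motif, with 3 leading guanines and 2 closing cytosines around 5 free bases, and an interferon-response-like motif, with a guanine and 3 adenines repeated after 2 free bases, were the remaining 2. The Ptgs2 window held a GC box 170 bases before the start, the palindrome TTGCGCAA of the C/EBP-like motif 69 bases before it, and an E-box at base 17 after it. A further C/EBP-like match, TTGGGGAA, and the NF-kB-like match GGGGAAAGCC overlapped each other just before the start. The Ptges window held GC boxes 53 and 42 bases before the start, the second overlapping the NF-kB-like match GGGGGTGACC, and the C/EBP-like match TTTCAAAA. In the Hpgds window only the C/EBP-like motif was found, as TTATGCAA and TTGTGAAA.

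Most of these letters are common in promoters. Of 32851 promoters in the table, 50.8% held the NF-kB-like motif, 40.7% the C/EBP-like motif, 35.7% the GC box and 13.6% TATAAA. The E-box was in 7.15%, and among the 7 members with a promoter in the table Ptgs2 alone held it. AP-1 was in 7.81%, the STAT-like motif in 8.30%, the interferon-response-like motif in 3.44% and the CRE in 1.79%, with no match for any of these 4 or for TATAAA in the 7 member windows. Alox5, Lta4h and Ptgs1 also held the NF-kB-like motif, and Ltc4s held none of the 9. A match is a run of letters and not a shown binding site.

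Alox5 encodes 5-lipoxygenase, the enzyme that starts leukotriene formation. Its probe set 17462128 read 5.56 with conditioned medium, against 5.41 in the control. Its other probe set, 17470031, read 4.61 with conditioned medium, against 5.05 in the control. The log2 differences of 0.15 and -0.44 had opposite signs, so no direction is given for Alox5.

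Alox5ap encodes the 5-lipoxygenase activating protein FLAP, a membrane protein that presents arachidonic acid to the enzyme. Its probe set 17455498 read 10.87 with conditioned medium, against 11.67 in the control. The second probe set, 17444961, read 10.49 with conditioned medium, against 11.26 in the control. Both probe sets were thus lower by nearly the same amount, 1.74-fold and 1.71-fold, and far above the filter level in both cultures.

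Lta4h encodes leukotriene A4 hydrolase, which makes leukotriene B4, a chemoattractant for neutrophils. Its log2 intensity was 7.08 with conditioned medium, against 7.65 in the control, 1.48-fold lower. Ltc4s encodes leukotriene C4 synthase, which takes the same precursor to the cysteinyl leukotrienes. It read 6.92 with conditioned medium, against 6.37 in the control, 1.46-fold higher. The 2 enzymes that compete for leukotriene A4 therefore differed in opposite directions, each by less than 2-fold, and differences larger than theirs were found in 36.1% (Lta4h) and 37.4% (Ltc4s) of kept genes.

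Alox15 encodes the mouse 12/15-lipoxygenase, known from resident macrophages and eosinophils. It read 3.79 with conditioned medium, against 4.55 in the control. The gene was near the filter level in both cultures, 1.69-fold lower as deposited and 1.36-fold lower against that level. Its order among the lower members is therefore uncertain.

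**Figure D2:**
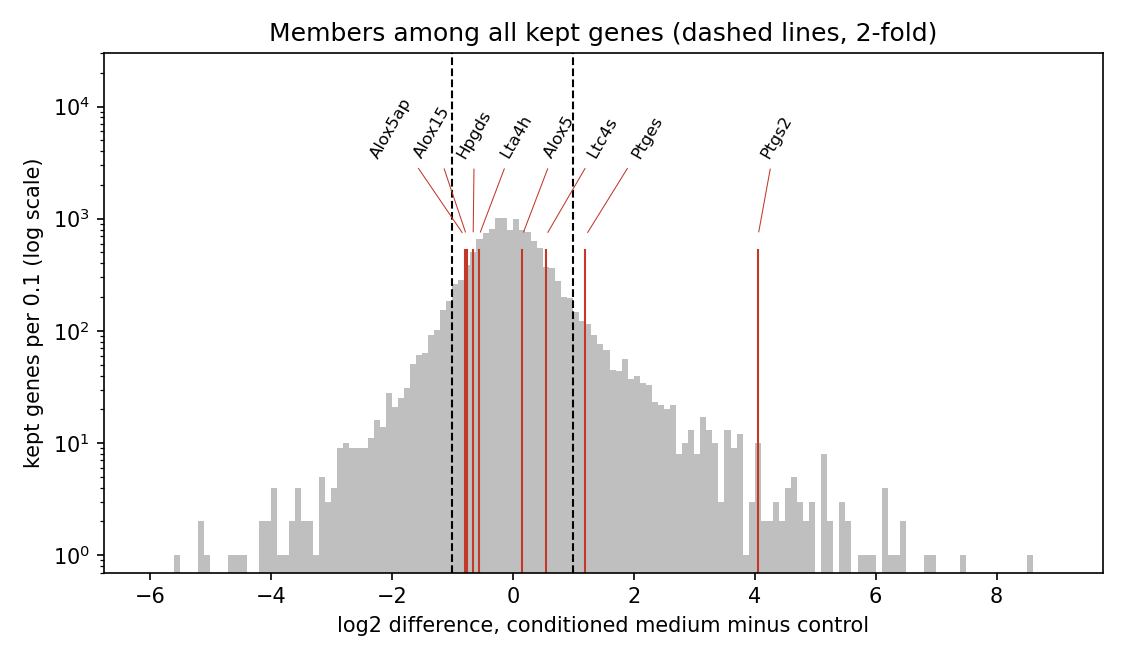
Number of kept genes per 0.1 of log2 difference (vertical axis, log scale) against the difference, conditioned medium minus control (horizontal axis), with a red line at each of the 8 measured members. Ptgs2 at 4.05 and Ptges at 1.20 lie right of the 2-fold line, and the other 6 members lie from -0.80 to 0.54, in the dense part of the distribution.

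A scale for these differences came from the 652 genes for which several probe sets reached the filter level. Within such a gene the log2 differences varied with an SD of 0.46 (pooled, 787 degrees of freedom), a figure that says nothing of the spread between cultures. As deposited, the differences of Ltc4s (0.54), Lta4h (-0.56), Hpgds (-0.65), Alox15 (-0.76) and Alox5ap (-0.80) were larger than that SD. Those of both Alox5 probe sets were smaller. Against the filter level the Alox15 difference was -0.45, which was slightly smaller than that SD. So was the Lta4h difference after a lowess correction, also -0.45. Because cultures are mixtures, fewer cells of a type and less RNA per cell cannot be told apart for any of these genes.

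The markers of other cells that could carry these genes also differed between the arrays. Of 11 neutrophil markers, all kept, 8 were at least 2-fold lower with conditioned medium and 0 higher, and the summed linear intensity of all 11 was 2748 with conditioned medium and 10289 in the control. Most of both sums came from S100a8 (10.53 with conditioned medium, 12.16 in the control) and S100a9 (9.57 and 11.77). The most negative difference was that of Camp, a granule peptide gene (3.03 with conditioned medium, 8.57 in the control), and Ly6g was the one with a positive difference (6.88 and 6.14). Cxcr2 (1.94-fold) and Mmp8 (1.48-fold) were lower by less than 2-fold. Neutrophils are known to express Alox5, Alox5ap and Lta4h, and the part of these markers in the lower values of Alox5ap and Lta4h was not tested.

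Mast cells, basophils and eosinophils are known sources of Hpgds and Ltc4s products. Of 12 mast cell and basophil markers 7 were kept, 3 of them at least 2-fold lower as deposited (Cpa3, Fcer1a and Mitf) and 1 higher (Hdc, the histamine-forming enzyme, 6.06 with conditioned medium and 3.12 in the control). Fcer1a read 3.09 with conditioned medium and 4.39 in the control, which is 1.22-fold lower against the filter level, so that 2 markers remained past 2-fold downward. Cpa3, a mast cell protease gene, read 3.72 with conditioned medium and 6.52 in the control. Against the filter level Cpa3 was 5.36-fold lower and Hdc 3.88-fold higher. The list summed to 448 with conditioned medium and 655 in the control. Its highest marker on both arrays was Mcpt8, which read 7.85 with conditioned medium and 8.37 in the control (1.44-fold lower). Kit, Tpsb2, Tpsab1, Cma1 and Mcpt4 lay under the filter level on both arrays.

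Of 6 eosinophil markers 4 were kept and 2 were at least 2-fold lower as deposited. These were Prg2, a granule protein gene (5.61 with conditioned medium and 9.55 in the control), and Prg3 (3.38 and 4.96). Against the filter level Prg3 was 1.82-fold lower, which left Prg2 alone past 2-fold. Siglecf held the same value of 5.24 on both arrays. The list summed to 151 with conditioned medium and 876 in the control, and most of the control sum came from Prg2. Ccr3 was 1.19-fold lower (5.12 with conditioned medium and 5.37 in the control). Epx and Il5ra lay under the filter level on both arrays. The part of mast cell, basophil and eosinophil markers in the values of Hpgds, Ltc4s and Alox15 was not tested.

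The markers did not fully bear out the labelled dendritic cells. Zbtb46, a transcription factor gene that defines conventional dendritic cells, lay under the filter level on both arrays, and Flt3 lay under it with conditioned medium (3.15, against 4.38 in the control). The other 8 of 10 measured dendritic cell markers were above it on both arrays in the probe set with the highest mean. A second probe set of Cd209a lay under it on both (2.87 with conditioned medium and 4.01 in the control). Of the 9 kept markers, 4 were at least 2-fold higher and 4 lower (3 against the filter level), from Dpp4 (4.75-fold higher) to Batf3 (4.08-fold lower), with a median log2 difference of -0.17. The list summed to 4971 with conditioned medium and 2445 in the control, of which H2-Aa and H2-Ab1 made up 4492 with conditioned medium and 1678 in the control. All 10 macrophage and monocyte markers were kept, with 1 at least 2-fold higher (Ly6c2, 2.27-fold) and 4 lower, the lowest being Csf1r (7.61-fold lower). Mrc1 (6.69-fold), Ccr2 (5.59-fold) and Adgre1 (4.89-fold) were also at least 2-fold lower. The macrophage and monocyte list summed to 22469 with conditioned medium and 19731 in the control, although 7 of its 10 markers had a negative difference. Fcgr1, one of its strongest markers, read 12.44 with conditioned medium and 11.45 in the control (1.98-fold higher). Platelet markers (5 of 5 measured kept) had 1 member at least 2-fold higher, the collagen receptor gene Gp6 (2.25-fold), and Ppbp as the lowest (1.37-fold lower). They summed to 2610 with conditioned medium and 3089 in the control.

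Tumour material in the medium was looked at through 7 mammary epithelial markers, of which 4 were kept. All 7 summed to 1365 with conditioned medium and 199 in the control, and a single Cdh1 probe set made up 1183 with conditioned medium and 85.6 in the control. Without Cdh1 the sum was 182 with conditioned medium and 114 in the control. Cdh1 (13.8-fold higher in that probe set, 1.46-fold in the other) was at the high end and Krt8 (1.14-fold lower) at the low end. Krt19 was 4.44-fold higher, and Cldn3 was nearly level (4.75 with conditioned medium and 4.71 in the control). Epcam, Krt18 and Cldn4 lay under the filter level on both arrays. Whether the Cdh1 and Krt19 signals came from tumour material or from the cultured cells was not tested. Tumour cells can express Ptgs2 and Ptges, and the part of such material in their higher values was not tested.

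The wider pathway was described with 8 lists of 69 other genes, of which 60 were measured and 49 kept. Of these 49 genes, 5 were at least 2-fold higher (10.2%), 5 were at least 2-fold lower (10.2%) and 39 lay between, shares to be read against the 8.63% and 6.84% of all kept genes. Their median log2 difference was 0.00, against -0.07 over all kept genes. The lists are named here by what their genes do, from the release of arachidonic acid to the receptors.

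**Figure D3:**
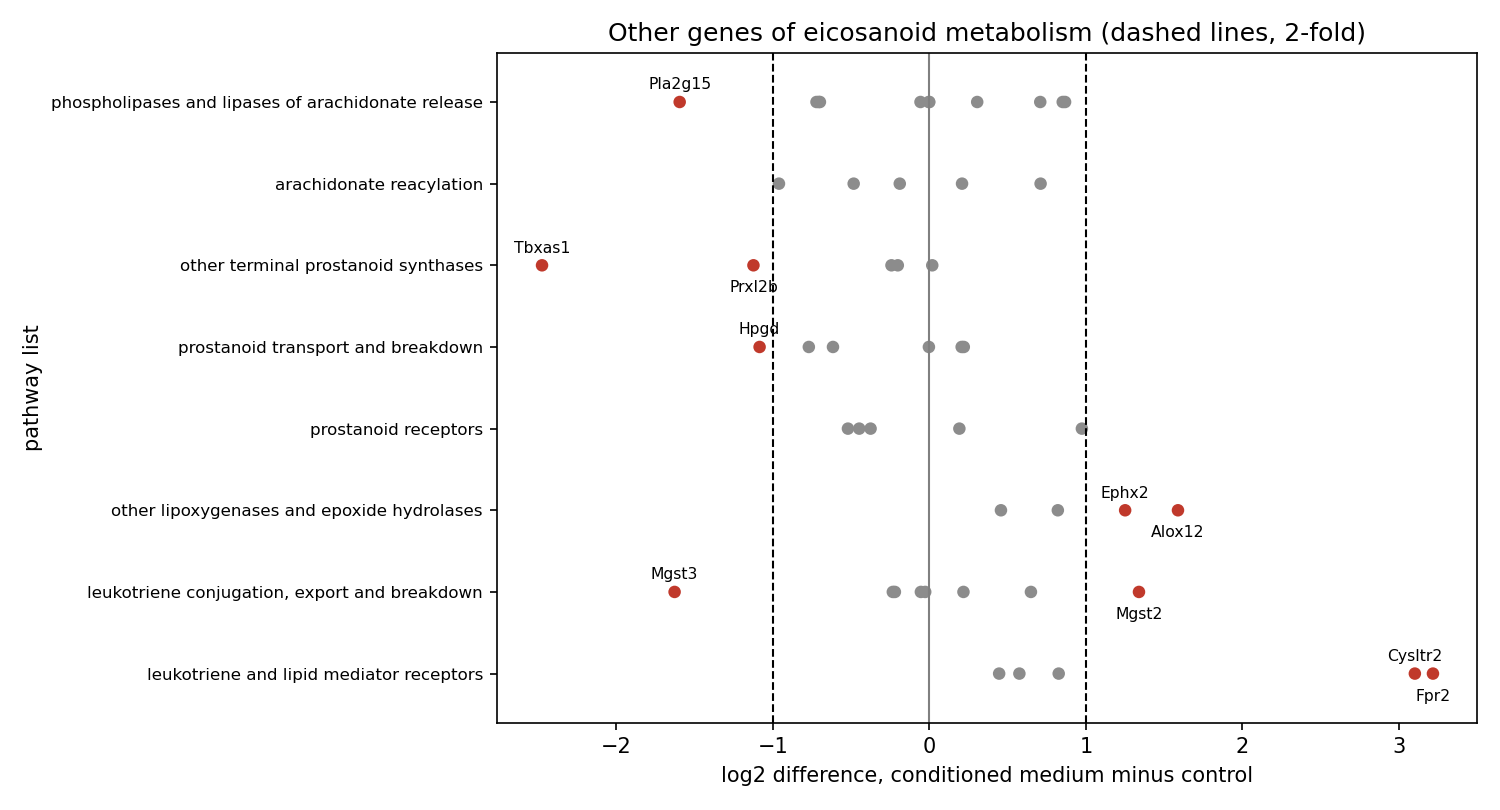
Log2 difference, conditioned medium minus control (horizontal axis), of the 49 kept genes in 8 lists of eicosanoid metabolism (vertical axis); red points are at least 2-fold apart. The 5 lower genes lie in lists of lipases, terminal synthases, prostanoid breakdown and leukotriene conjugation, and the 5 higher ones in the bottom 3 lists.

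Among phospholipases and lipases with 11 kept genes, 0 passed 2-fold upward and 1 downward. That gene, the lysosomal phospholipase Pla2g15, read 9.15 with conditioned medium, against 10.74 in the control, and its second probe set 5.19 against 6.40. Both probe sets were lower, 3.02-fold and 2.32-fold. Pla2g4a, the cytosolic phospholipase that releases arachidonic acid in activated cells, read 7.34 with conditioned medium, against 6.63 in the control (1.63-fold higher). Pla2g7, which breaks down platelet-activating factor, was 1.82-fold higher.

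Genes that put arachidonic acid back into phospholipids showed 0 of 5 kept members past 2-fold in either direction. The acyl-CoA synthetase gene Acsl5 was 1.95-fold lower (7.64 with conditioned medium, 8.60 in the control). Lpcat2, which also makes platelet-activating factor, was 1.64-fold higher (7.52 and 6.81).

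Among the other terminal prostanoid synthases, 2 of 5 kept genes were at least 2-fold lower and 0 higher. Tbxas1, thromboxane A synthase, which competes with Ptges and Hpgds for prostaglandin H2, read 5.35 with conditioned medium, against 7.82 in the control. It was 5.55-fold lower, the most negative difference among the 49 kept pathway genes. Prxl2b, which encodes a prostamide and prostaglandin F synthase, was 2.18-fold lower (6.68 and 7.80). The remaining E2 synthase genes were closer: Ptges3 was 1.15-fold lower (11.04 and 11.24) and Ptges2 1.18-fold lower (5.51 and 5.75). The prostacyclin synthase gene Ptgis read 4.80 with conditioned medium and 4.79 in the control. Of the 4 kept genes of E2 synthesis among members and lists (Ptgs2, Ptges, Ptges2 and Ptges3), the first 2 were higher and the others slightly lower.

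Genes of prostanoid transport and breakdown included 1 of 6 that was at least 2-fold lower and 0 higher. Hpgd, the dehydrogenase that inactivates prostaglandin E2, read 6.40 with conditioned medium, against 7.48 in the control (2.12-fold lower). Ptgr2 (1.70-fold) and Ptgr1 (1.53-fold), reductases that act on the product of Hpgd, were also lower. Cbr1, a carbonyl reductase, read 10.02 on both arrays. The importer Slco2a1 and the exporter Abcc4 were 1.17-fold and 1.15-fold higher.

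No prostanoid receptor gene passed 2-fold, with 0 of 5 kept genes in either direction. Ptgir, the prostacyclin receptor, came nearest at 1.97-fold higher (5.89 with conditioned medium, 4.92 in the control). The E2 receptor genes Ptger2 (6.24 and 6.05) and Ptger4 (4.44 and 4.81) differed by 1.14-fold upward and 1.30-fold downward.

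**Figure D4:**
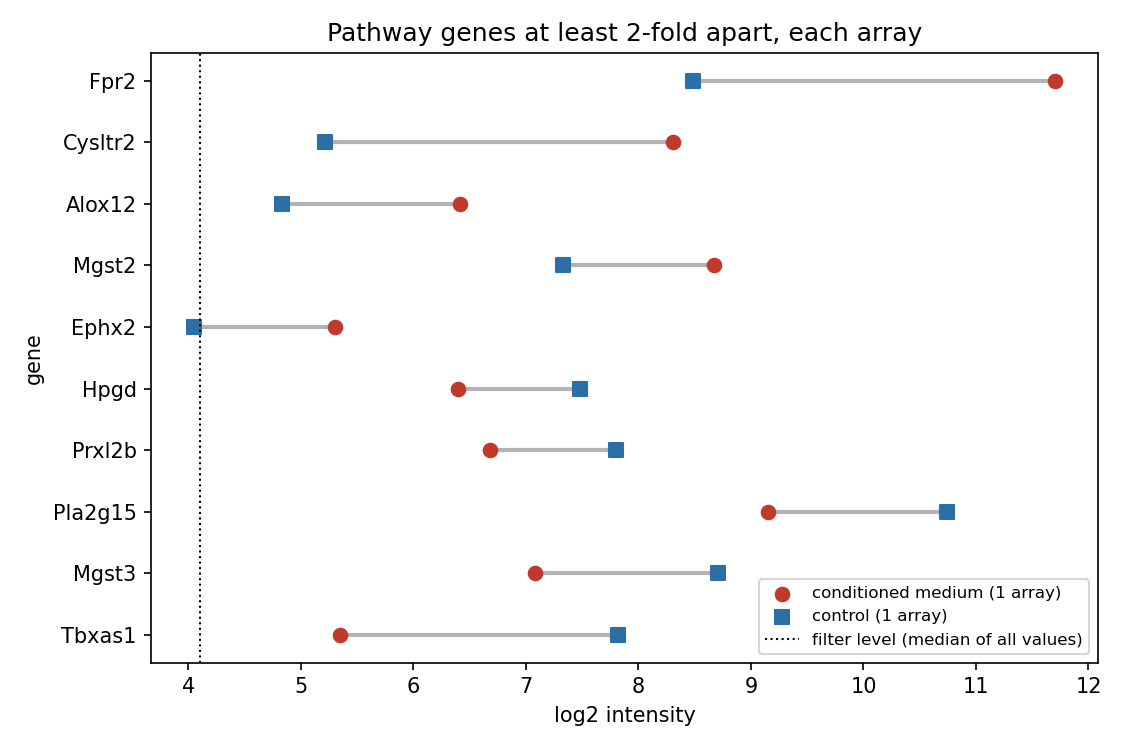
Log2 intensity (horizontal axis) of the 10 pathway genes at least 2-fold apart (vertical axis) on the conditioned-medium array (circles) and the control array (squares), 1 array each. Fpr2 and Cysltr2 have the longest lines to the right of their control values, Tbxas1 has the longest to the left, and Ephx2 has a control value of 4.05 just under the dotted filter level of 4.10.

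In the list of other lipoxygenases and epoxide hydrolases, 2 of 4 kept genes passed 2-fold upward and 0 downward. Alox12, the platelet-type 12-lipoxygenase, read 6.42 with conditioned medium, against 4.83 in the control (3.01-fold higher), whereas Alox15 was lower. Ephx2, the soluble epoxide hydrolase, read 5.30 with conditioned medium, against 4.05 in the control (2.38-fold, and 2.30-fold against the filter level). Ephx1, the microsomal epoxide hydrolase, was 1.77-fold higher.

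Leukotriene conjugation, export and breakdown held 1 of 8 kept genes on each side of 2-fold. Mgst2, which can make leukotriene C4 as Ltc4s does, read 8.67 with conditioned medium, against 7.33 in the control (2.53-fold higher). Its relative Mgst3 read 7.08 with conditioned medium, against 8.71 in the control (3.09-fold lower). Dpep2, a dipeptidase that turns leukotriene D4 into E4, was nearly level in 1 probe set (9.77 and 9.83) and 3.86-fold lower in the other (7.01 and 8.96), so its probe sets disagreed in size.

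Receptors of leukotrienes and related lipid mediators had all 5 kept genes above 0, and 2 of them were at least 2-fold higher. Cysltr2, a receptor for cysteinyl leukotrienes, read 8.31 with conditioned medium, against 5.21 in the control (8.58-fold higher). Fpr2, a formyl peptide receptor that also binds lipoxin A4, read 11.70 with conditioned medium, against 8.48 in the control (9.30-fold higher). Cysltr1 (1.49-fold), the leukotriene B4 receptor gene Ltb4r1 (1.36-fold) and the platelet-activating factor receptor gene Ptafr (1.77-fold) were higher by less than 2-fold. Genes with a difference above 0 made up 44.2% of all kept genes.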

How the data were processed

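Per the labels' protocols, RNA came from Trizol extraction and cRNA was labelled with biotin. Affymetrix Expression Console is named in the submitters' processing notes, and for its version, its algorithm and the genome build the sources used here give nothing. The authors deposited a table of probe set values, which were read as log2 intensity since they ran from 0.02 to 13.50 with conditioned medium and from -0.26 to 13.42 in the control. The log base is thus inferred. The 2 columns had nearly equal medians (4.09 with conditioned medium, 4.10 in the control), so a shift of most genes would not be seen.

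Of 41345 probe sets, 23521 carried 1 gene symbol in the platform annotation, 1814 carried several and stayed unnamed, and 16010 were not listed. A gene was represented by its probe set with the highest mean, and kept when the higher of its 2 values reached 4.10. Fold is 2 raised to the log2 difference, and genes were counted at 2-fold. No detection calls were used, no test was run, and the number of arrays limits the precision. The counting code was also run on simulated differences of a set size, which checks the code and says nothing of these cultures.

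The members and lists were chosen with earlier results of these data known. From each pathway list the genes at least 2-fold apart and the 2 with the highest level were named, and from each marker list the highest and lowest, with those past 2-fold for mast cells, eosinophils and platelets. Pla2g4a, Ptges2, Ptgis, Ptgr2, Slco2a1, Abcc4, Ptger4, Cysltr1 and Ltb4r1 were added once their values were known. So were the markers Flt3, H2-Aa, H2-Ab1, Krt19, Cldn3, Mcpt8, Ccr3, Fcgr1, Adgre1, Mrc1 and Ccr2, and markers under the filter level. S100a8, S100a9, Cxcr2, Mmp8 and Cd209a were added in the same way. The 10 alternatives comprised the average over a gene's probe sets, quantile normalization, a lowess correction (fraction 0.3, 3 iterations), centring on kept genes, 3 other filters (none, the 75th percentile, the mean of both arrays at the same level), raising the lower value to the filter level, and thresholds of 1.5-fold and 3-fold. Python 3.11.15, numpy 2.4.6, pandas 2.3.3, statsmodels 0.14.6 and matplotlib 3.10.9 were used.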

Additional observations from a re-analysis of the deposited data

How the results depend on the processing

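Each of Ptgs2, Ptges, Hpgds, Alox5ap, Alox15, Lta4h and Ltc4s kept its direction under the 5 alternatives that can change a difference. Ptgs2 ranged from 3.37 (lower value raised to the filter level) to 4.13, Ptges from 1.18 to 1.27, Alox5ap from -0.80 to -0.73 and Alox15 from -0.76 to -0.45. Hpgds ranged from -0.75 to -0.58, Lta4h from -0.58 to -0.45 and Ltc4s from 0.52 to 0.64. Alox5 ranged from -0.14, the mean of its probe sets, to 0.22, so its sign depends on that choice. At 1.5-fold, 2 members were higher and 3 lower, against 16.6% and 17.9% of kept genes (2274 and 2458), and the pathway lists held 13 higher and 11 lower genes. At 3-fold, 1 member was higher and 0 lower, against 4.14% and 2.11% of kept genes (568 and 290), and the lists held 3 and 3. The counts at 2-fold stayed at 2 members higher and 0 lower under the other 8 alternatives, although the filter at the 75th percentile kept 7 of the 8 members, leaving out Alox15. Over those 8 the share of all kept genes did move. On the higher side it ran from 5.79% without a filter to 13.6% with the filter at the 75th percentile. On the lower side it ran from 4.94% to 10.2% under the same settings. The pathway counts at 2-fold moved slightly, to 6 higher and 4 lower with the lowess correction and 6 and 5 with centring. They were 5 and 6 with the average over probe sets, and 4 and 5 of 32 kept genes with the filter at the 75th percentile. Under the rest of the 8 they stayed at 5 and 5. No paired analysis was possible because each culture had 1 array. For the same reason no replicate could be left out, and a difference between these cultures cannot be told from a difference between any pair of cultures.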
